A study of Arabidopsis thaliana with 4 samples.

Results

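Transcripts of 10 WRKY transcription factor genes linked to leaf senescence and pathogen defence were followed in Arabidopsis thaliana seedlings of the lux-6 mutant and of the wild type. The genes were taken by a fixed list of AGI identifiers, and all 10 were found among the 33602 gene identifiers measured. They are WRKY6 (AT1G62300), WRKY18 (AT4G31800), WRKY22 (AT4G01250), WRKY33 (AT2G38470), WRKY40 (AT1G80840), WRKY46 (AT2G46400), WRKY53 (AT4G23810), WRKY54 (AT2G40750), WRKY60 (AT2G25000) and WRKY70 (AT3G56400). Both groups were whole seedlings of the Col-0 ecotype, 10 days old, grown in long days at 22 °C on MS medium with 3% sucrose and collected at zeitgeber time 12, 12 h after lights on. The lux-6 group carried lux -/- and the Col-0 group was wild type, with 2 libraries each that the series calls biological replicates. LUX is a DNA-binding protein of the evening complex, a repressor of the circadian clock that acts around dusk, and the series asks how its loss bears on leaf senescence. Neither the nature of the lux-6 mutation nor the number of plants per library is given in the labels. Where a bulk library holds less of a transcript, fewer cells of a type and less RNA per cell cannot be told apart.

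WRKY proteins are plant transcription factors that bind the W box, a short DNA element with the core TTGAC, through a domain with a conserved WRKYGQK stretch and a zinc finger. Many WRKY genes carry W boxes in their own promoters and are induced within minutes of a pathogen signal or wounding, often downstream of a MAP kinase cascade. By domain structure WRKY33 belongs to group I, WRKY18, WRKY40 and WRKY60 to group IIa, WRKY6 to group IIb, WRKY22 to group IIe, and WRKY46, WRKY53, WRKY54 and WRKY70 to group III. WRKY6 and WRKY53 are known as promoters of leaf senescence, while WRKY54 and WRKY70 are known to delay it and to act in salicylic acid signalling.

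To show the DNA that lies next to these genes, the 300 bases before the annotated gene start were read from the RefSeq genome TAIR10.1 and searched on both strands for the W-box core TTGAC. Here 5 of the 10 are printed, because they hold the most W-box matches (WRKY33, WRKY40, WRKY53) or none (WRKY18, WRKY60). Each is written 5′ to 3′ along the gene's own strand, and capitals mark the core, which reads GTCAA where it lies on the opposite strand. The windows are chr2:16107935-16108234 for WRKY33, chr1:30383261-30383560 for WRKY40 and chr4:15382477-15382776 for WRKY18, all on the plus strand. They are chr4:12393983-12394282 on the minus strand for WRKY53 and chr2:10629362-10629661 on the plus strand for WRKY60.
WRKY33: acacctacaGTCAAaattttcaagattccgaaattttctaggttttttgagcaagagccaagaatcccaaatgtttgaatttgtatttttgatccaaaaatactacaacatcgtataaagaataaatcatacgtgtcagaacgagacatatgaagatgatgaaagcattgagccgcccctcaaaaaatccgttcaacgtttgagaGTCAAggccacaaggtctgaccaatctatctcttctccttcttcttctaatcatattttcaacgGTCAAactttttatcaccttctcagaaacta
WRKY40: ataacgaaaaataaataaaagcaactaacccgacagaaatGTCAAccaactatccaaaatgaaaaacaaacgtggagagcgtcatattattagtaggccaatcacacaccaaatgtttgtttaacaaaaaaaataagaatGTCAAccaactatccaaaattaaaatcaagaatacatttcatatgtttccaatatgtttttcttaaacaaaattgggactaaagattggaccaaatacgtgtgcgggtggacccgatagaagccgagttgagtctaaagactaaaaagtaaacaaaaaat
WRKY53: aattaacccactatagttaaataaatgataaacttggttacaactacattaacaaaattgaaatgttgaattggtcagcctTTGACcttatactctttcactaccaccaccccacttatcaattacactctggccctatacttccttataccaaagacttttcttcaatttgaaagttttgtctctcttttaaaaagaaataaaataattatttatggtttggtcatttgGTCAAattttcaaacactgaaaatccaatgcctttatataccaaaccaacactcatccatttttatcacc
WRKY18: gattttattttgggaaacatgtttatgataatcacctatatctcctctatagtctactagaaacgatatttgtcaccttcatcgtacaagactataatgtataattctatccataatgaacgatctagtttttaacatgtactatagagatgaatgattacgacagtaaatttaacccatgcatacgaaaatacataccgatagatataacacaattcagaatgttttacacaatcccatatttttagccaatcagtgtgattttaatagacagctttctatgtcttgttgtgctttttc
WRKY60: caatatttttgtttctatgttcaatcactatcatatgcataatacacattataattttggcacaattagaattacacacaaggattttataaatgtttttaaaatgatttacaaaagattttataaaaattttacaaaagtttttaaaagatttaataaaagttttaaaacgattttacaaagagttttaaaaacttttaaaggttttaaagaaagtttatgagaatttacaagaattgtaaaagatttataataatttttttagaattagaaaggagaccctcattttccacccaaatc
Of the 10 windows 7 held the core at least once, against 50.4% of 27443 protein-coding genes. WRKY33 held 3 cores, a number reached by 5.07% of the genes. All 3 of WRKY33 were the longer forms TTGACC or TTGACT, which contain the core. At least 1 longer form was in 2 of the 10 windows and in 32.3% of all genes, and 3 or more in 1.57% of all genes. WRKY53 held 2 cores, both as TTGACC, and WRKY40 held 2 cores in neither longer form. WRKY18, WRKY54 and WRKY60 held no core in this window. The letters GATACG and GATTCG, published as binding letters of LUX, were in 0 of the 10 windows and in 14.3% of all genes. A match is a description of these letters and not a bound site, and their absence says nothing about binding elsewhere.

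**Figure D1:**
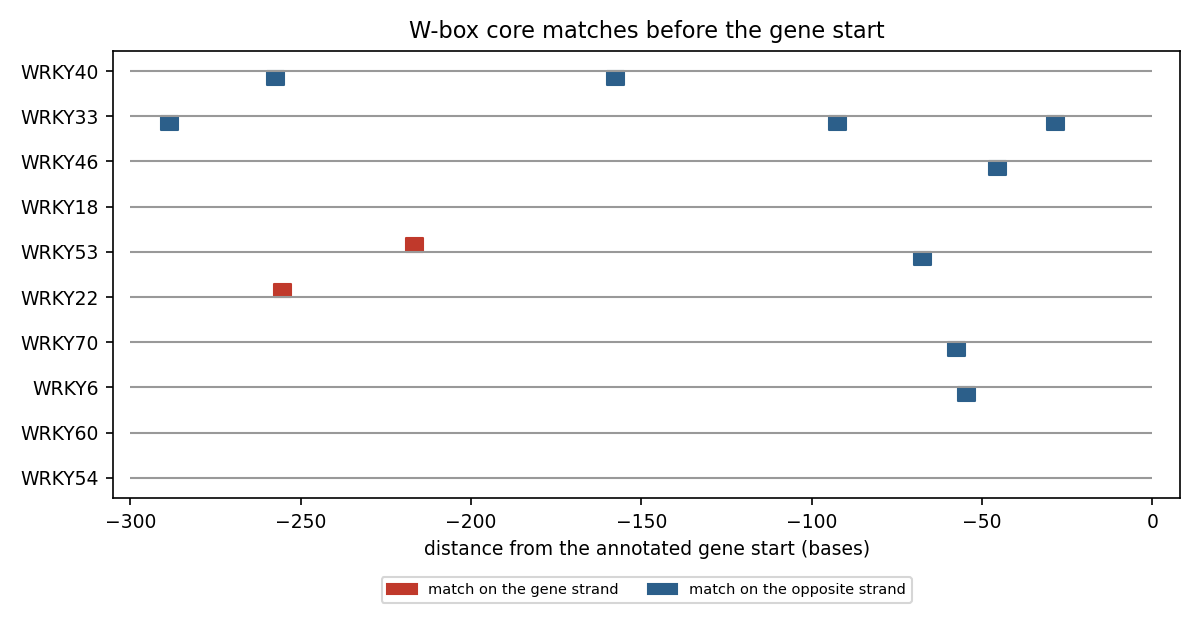
Positions of the W-box core in the 300 bases before the annotated start of each of the 10 WRKY genes, ordered from the highest fold change at the top, with the untested WRKY54 last. The x axis is the distance from the start in bases, red blocks above a line are matches on the gene's strand and blue blocks below it on the opposite strand; WRKY33 holds 3, WRKY40 and WRKY53 hold 2 each, and WRKY18, WRKY60 and WRKY54 hold none.

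Expression is given as FPKM, fragments scaled to gene length and library depth, which allows levels to be compared between genes. The library totals, worked back from the values, were between 10735709 and 11198704 fragments. Fold changes are lux-6 over Col-0 on the scale log2(FPKM + 1), which understates changes of low genes, and were tested with limma over the 19592 genes that averaged 1 FPKM or more. Among the libraries, Col-0 replicate 2 was the least like the rest. Across genes its log2 values correlated with Col-0 replicate 1 at r = 0.909, against 0.984 between the lux-6 libraries, and plastid transcripts made up 3.09% of its FPKM total, against at most 0.0698% in the others. Col-0 replicate 1 correlated with the lux-6 libraries at 0.955 and 0.957, above its value with Col-0 replicate 2, and Col-0 replicate 2 correlated with each of them at 0.863. Fold changes of the WRKY genes are therefore given with and without Col-0 replicate 2. LUX itself (AT3G46640) had a transcript level of 34.8 and 35.3 FPKM in lux-6 and of 57.0 and 73.9 FPKM in Col-0 (adjusted p = 0.187), a log2 fold change of -0.87, or -0.69 without Col-0 replicate 2.

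Most of the 10 WRKY transcripts were more abundant in lux-6. WRKY40, WRKY46, WRKY33, WRKY18, WRKY53, WRKY22 and WRKY70 had mean FPKM ratios between 4.55 and 18.0, WRKY6 had 1.69, and WRKY60 and WRKY54 had 1.03 and 0.810. Of the 9 tested, WRKY33 rose past an adjusted p of 0.05 and none fell, where 0.286% of all tested genes rose and 0.0051% fell. At an unadjusted p under 0.05, 7 of the 9 were higher, against 9.18% of all tested genes. For 8 of the 9 tested the lux-6 libraries were each higher than either Col-0 library, against 26.1% of all tested genes. The median log2 fold change of the 9 was 2.29, beside 0.05 over all tested genes. WRKY54 was not tested, because its mean over the 4 libraries was under 1 FPKM, and its libraries overlapped. With 2 libraries a genotype an exact two-sided permutation test cannot go below 0.333, so each call rests on the spread that limma shares between genes. The number past the test was 8 when Col-0 replicate 1 was left out, 7 when Col-0 replicate 2 was, and 0 when either lux-6 replicate was (7 at an unadjusted p under 0.05 in each). All of those past the test were higher in lux-6, and in the fits with a Col-0 library left out 21.7% and 3.47% of all tested genes passed in that direction. The loss of calls without a lux-6 library held for all tested genes alike. A fit with a lone library takes its spread from the other pair, so larger counts are not stronger evidence.

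**Figure D2:**
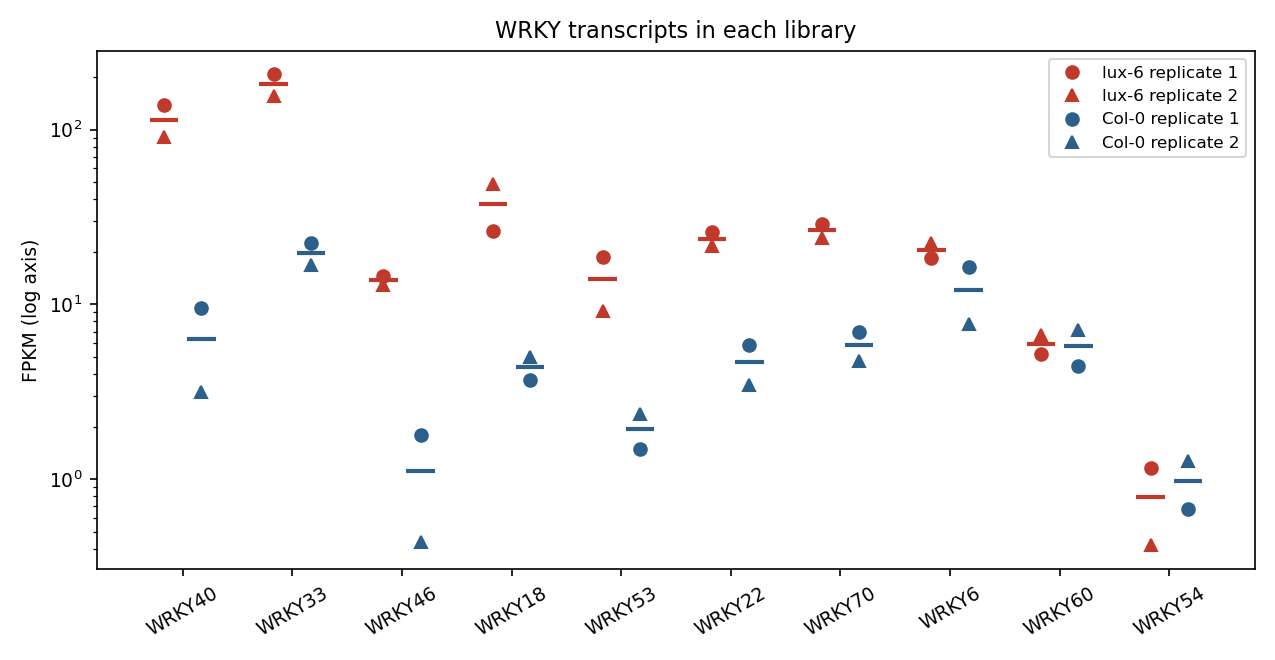
FPKM (log axis) of the 10 WRKY genes in each of the 4 libraries, with lux-6 in red left of Col-0 in blue. Circles are replicate 1, triangles replicate 2 and bars the mean of 2; the lux-6 points lie above the Col-0 points for 8 genes and mix with them for WRKY60 and WRKY54.

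WRKY33, which is phosphorylated by MPK3 and MPK6 and activates synthesis of the antifungal compound camalexin, was the most abundant of the 10 in every library. It stood at 207 and 156 FPKM in lux-6, against 22.6 and 16.8 FPKM in Col-0. The lowest lux-6 library was 6.93 times the highest Col-0 library. The means were 182 ± 35.9 FPKM in lux-6 and 19.7 ± 4.07 FPKM in Col-0 (SD, n = 2), which gives 3.14 ± 0.24 (standard error) as log2 fold change. WRKY33 passed the test over all genes (adjusted p = 0.0330), and by fold change it was the 60th of 19592. Between the Col-0 libraries it differed by -0.40 on the log2 scale (replicate 2 minus 1), and between the lux-6 libraries by the same -0.40. Without Col-0 replicate 2 the log2 fold change was 2.94 (adjusted p = 0.00191). With lux-6 replicate 1 or 2 left out it was 2.94 and 3.35. The call was then lost, as were the calls of all other genes in these fits.

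WRKY22, a factor that acts with WRKY29 downstream of the flagellin-triggered MAP kinase cascade and takes part in dark-induced senescence, was at 26.0 and 21.5 FPKM in lux-6. In Col-0 it was at 5.88 and 3.44 FPKM. The groups did not overlap, and the lux-6 mean was 5.10 times that of Col-0. The log2 fold change of 2.16 ± 0.28 (standard error) did not pass over all genes (adjusted p = 0.0718). It was 1.84 without Col-0 replicate 2, and 2.03 and 2.29 without lux-6 replicate 1 or 2. Its values rest on 348 and 282 fragments in lux-6 and on 79 and 47 in Col-0.

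In group IIa, the libraries of WRKY40 and WRKY18 were separated by genotype and those of WRKY60 overlapped, while none of the 3 passed in limma. WRKY40, WRKY18 and WRKY60 form complexes with one another and act largely as negative regulators of basal defence and abscisic acid responses. WRKY40 had the largest fold change of the 9 tested, at 138 and 90.3 FPKM in lux-6 and 9.57 and 3.14 FPKM in Col-0. Its ratio of means was 18.0 and its log2 fold change 4.09 ± 0.50 (standard error), the 17th highest of 19592 genes. It did not pass in limma (adjusted p = 0.0658), and its Col-0 libraries differed by -1.35 (replicate 2 minus 1). With limma-voom on fragments, which called 0.462% of genes higher and 0.0154% lower, WRKY40 passed beside WRKY33 (adjusted p = 0.0498 and 0.0363). Without Col-0 replicate 2, the library with the lower value, the log2 fold change of WRKY40 was 3.41.

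WRKY18 stood at 26.4 and 48.9 FPKM in lux-6 and at 3.72 and 5.02 FPKM in Col-0. The lux-6 libraries were far apart, by 0.87 on the log2 scale (replicate 2 minus 1), yet the lower of them was 5.25 times the higher Col-0 library. The log2 fold change was 2.79 ± 0.34 (standard error; adjusted p = 0.0658). It was 2.97 without Col-0 replicate 2 and 2.36 without lux-6 replicate 2.

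WRKY60, the third group IIa gene and a reported target of WRKY18 and WRKY40, did not separate. It was at 5.203 and 6.70 FPKM in lux-6 and at 4.43 and 7.16 FPKM in Col-0, with both lux-6 values inside the Col-0 range. The log2 fold change was 0.05 with a 95% interval from -0.69 to 0.79 (adjusted p = 0.943), so a change up to the upper bound is not excluded by these libraries. It was 0.35 without Col-0 replicate 2, -0.24 when Col-0 replicate 1 was left out, and 0.21 and -0.10 when lux-6 replicate 1 or 2 was. In Col-0 replicate 2 WRKY60 was above WRKY40 and WRKY18, and in both lux-6 libraries it was below both.

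**Figure D3:**
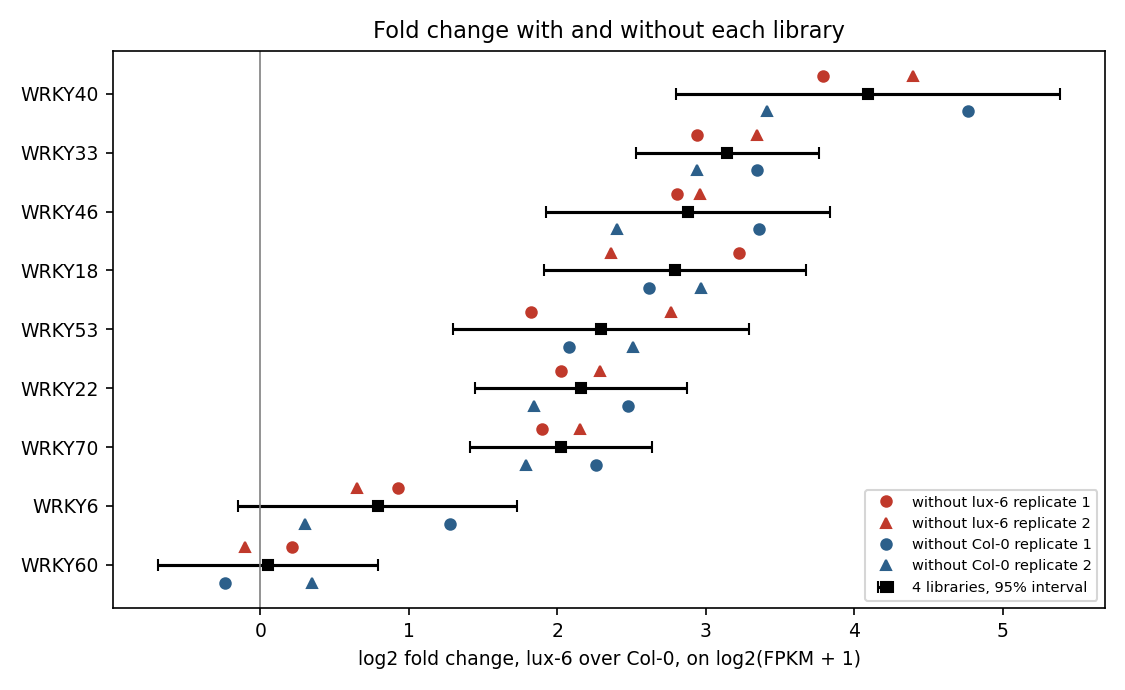
Log2 fold change, lux-6 over Col-0 on log2(FPKM + 1), of the 9 tested WRKY genes (black squares, with 95% intervals from limma) and the value with 1 library left out (red for a lux-6 library, blue for a Col-0 library, circles for replicate 1 and triangles for replicate 2). The values of WRKY40 run from 3.41 to 4.77, and those of WRKY60 fall on both sides of 0.

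In group III, the lux-6 libraries of WRKY46, WRKY53 and WRKY70 lay above those of Col-0, though none of these genes passed in limma, and WRKY54 was too low to test. WRKY46, a factor of salicylic acid defence and of stomatal and drought responses, was at 14.5 and 13.0 FPKM in lux-6, against 1.78 and 0.438 FPKM in Col-0. The Col-0 values rest on 24 and 6 fragments, with exact Poisson 95% intervals of 15.4 to 35.7 and 2.20 to 13.1 that cover counting error only. In lux-6 there were 195 and 170 fragments. The ratio of means was 12.4 and the log2 fold change 2.88 ± 0.37 (standard error; adjusted p = 0.0718). Without Col-0 replicate 2 it was 2.40.

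WRKY53, an early regulator that promotes leaf senescence, was at 18.7 and 9.23 FPKM in lux-6 and at 1.498 and 2.36 FPKM in Col-0. Its lux-6 libraries differed by -0.95 on the log2 scale (replicate 2 minus 1), the widest gap of the 10 genes within that genotype. The lower lux-6 library was still 3.91 times the higher Col-0 library. The log2 fold change was 2.29 ± 0.38 (standard error; adjusted p = 0.114), with 311 and 150 fragments in lux-6 and 25 and 40 in Col-0. Like WRKY18, WRKY54 and WRKY60, WRKY53 was higher in Col-0 replicate 2 than in replicate 1, and without Col-0 replicate 2 the fold change was 2.51.

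WRKY70, an activator of salicylic acid responses that represses jasmonate-responsive genes, was at 29.0 and 24.1 FPKM in lux-6 and at 6.94 and 4.74 FPKM in Col-0. Its Col-0 libraries differed by -0.47 and its lux-6 libraries by -0.25 on the log2 scale (replicate 2 minus 1). The groups did not overlap. The ratio of means was 4.55 and the log2 fold change 2.02 ± 0.24 (standard error; adjusted p = 0.0626). It was 1.79 without Col-0 replicate 2, and 1.90 and 2.15 without lux-6 replicate 1 or 2. WRKY54, its closest relative, stood near the limit of detection at 1.16 and 0.418 FPKM in lux-6 and 0.679 and 1.27 FPKM in Col-0. These are 17 and 6 fragments in lux-6 and 10 and 19 in Col-0. The Poisson intervals of lux-6 replicate 2 (2.20 to 13.1) and Col-0 replicate 1 (4.80 to 18.4) overlap, and a difference between genotypes was not detectable at this depth.

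WRKY6, which promotes senescence and also represses the phosphate exporter gene PHO1, did not pass the test. It was at 18.3 and 22.4 FPKM in lux-6 and at 16.3 and 7.76 FPKM in Col-0. The lowest lux-6 library was 1.13 times the highest Col-0 library. The log2 fold change was 0.79, with a 95% interval from -0.15 to 1.73 (adjusted p = 0.464). It was 0.30 without Col-0 replicate 2, but 1.28 when Col-0 replicate 1 was dropped.

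The order of levels among the 10 differed between the genotypes below WRKY33. WRKY40 was the second in both lux-6 libraries, but the third in Col-0 replicate 1 and the seventh in Col-0 replicate 2. WRKY6 was the second in both Col-0 libraries. In lux-6, WRKY18, WRKY70, WRKY22, WRKY6, WRKY53 and WRKY46 followed between 9.23 and 48.9 FPKM and changed places between the replicates, so their order there is not resolved. WRKY60 and WRKY54 were the lowest in both lux-6 libraries.

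The 10 genes took a larger part of the summed transcripts of WRKY-named genes in lux-6. Over the 67 genes that the annotation names WRKY with a number, FPKM summed to 1089 and 1018 in lux-6 and to 550.3 and 468 in Col-0. The 10 made up 44.5% and 38.6% of these sums in lux-6 and 13.3% and 11.1% in Col-0. WRKY33 alone made up 19.0% and 15.4% in lux-6 and 4.10% and 3.59% in Col-0, and the most abundant WRKY gene of both Col-0 libraries was WRKY15. The other 57 genes together summed to 604 and 625 FPKM in lux-6, against 477 and 416 FPKM in Col-0.

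Among these 57 genes, 41 were tested and none passed in limma or limma-voom. At an unadjusted p under 0.05, 6 were higher and 1 lower, against 9.18% and 3.1% of all tested genes. The lux-6 libraries were each higher than either Col-0 library for 9 of the 41 and each lower for 5, against 26.1% and 22.8% of all tested genes. Their median log2 fold change was 0.12, and it was 0.16 without Col-0 replicate 1, 0.045 without Col-0 replicate 2, 0.24 without lux-6 replicate 1 and 0.013 without lux-6 replicate 2. The smallest p was that of WRKY15, a group IId factor, at 120.3 and 119.9 FPKM in lux-6 and 46.6 and 42.9 FPKM in Col-0 (adjusted p = 0.0575). WRKY25, a close relative of WRKY33, was at 26.9 and 28.3 FPKM in lux-6 and at 9.26 and 6.28 FPKM in Col-0 (adjusted p = 0.0759). WRKY7 averaged 48.1 ± 1.91 FPKM in lux-6 and 23.4 ± 4.07 FPKM in Col-0, and WRKY48 averaged 7.32 ± 2.58 FPKM in lux-6 and 2.21 ± 0.330 FPKM in Col-0 (SD, n = 2; adjusted p = 0.138 and 0.190). With Col-0 replicate 1 left out, 8 of the 41 passed as higher and 1, WRKY61, as lower, against 21.7% and 12.1% of all tested genes. With Col-0 replicate 2 left out, 3 passed as higher and 0 as lower, against 3.47% and 0.357% of all tested genes, and 7 of the 41 were at an unadjusted p under 0.05.

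**Figure D4:**
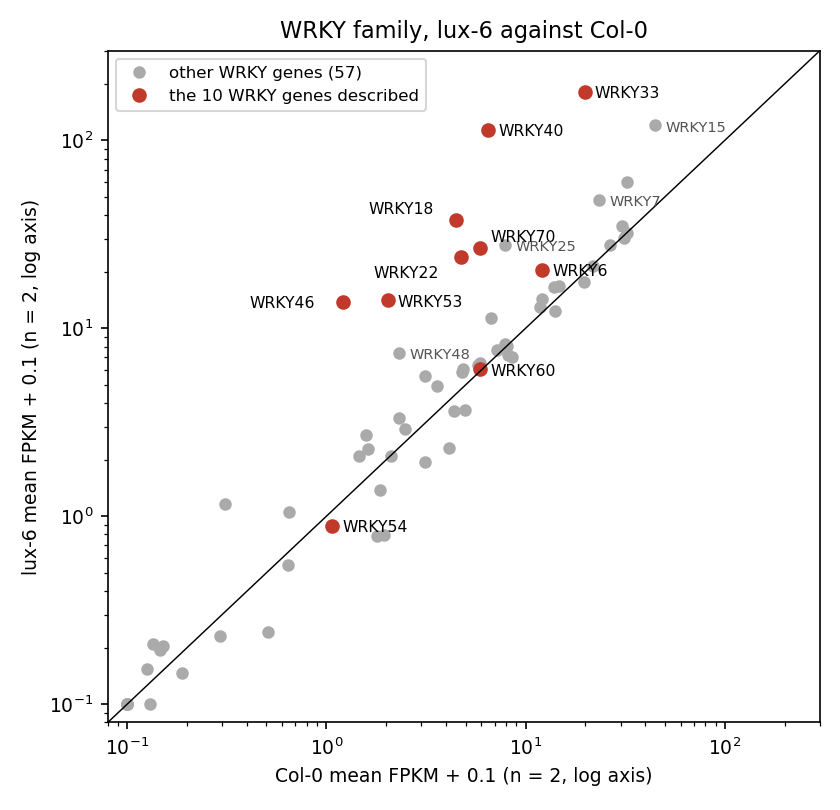
Mean FPKM (plus 0.1, log axes) of 67 WRKY genes in lux-6 (y axis) against Col-0 (x axis), n = 2 each, with the 10 genes described in red, the other 57 in grey and the line of equal levels in black. WRKY40, WRKY33, WRKY46, WRKY18, WRKY53, WRKY22 and WRKY70 lie far above the line, WRKY60 and WRKY54 close to it, and most grey points near it.

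Of the MAP kinase cascade that signals to WRKY22 and WRKY33, 0 of 9 tested genes passed in limma. The median log2 fold change was 0.37, and 4 genes were higher at an unadjusted p under 0.05, against 9.18% of all tested genes. MPK3, a kinase that phosphorylates WRKY33, was at 168 and 157 FPKM in lux-6 and at 46.4 and 36.7 FPKM in Col-0 (adjusted p = 0.0525). In limma-voom MPK3 was the only one of the 9 to pass (adjusted p = 0.0411), against 0.462% of all tested genes. MEKK1, a kinase at the top of a cascade, averaged 20.3 ± 1.15 FPKM in lux-6 and 11.2 ± 0.205 FPKM in Col-0 (SD, n = 2; adjusted p = 0.166). MPK6 and MPK4, chosen after their values were seen, had log2 fold changes of -0.12 and 0.03. The median of the list was 0.65 without Col-0 replicate 1, and 0.57 with replicate 2 left out instead. Of 4 VQ-motif proteins that bind WRKY factors none passed in limma or limma-voom. At an unadjusted p under 0.05, 3 were higher, against the same 9.18%. SIB1 and MKS1, which bind WRKY33, averaged 10.5 ± 1.92 and 9.76 ± 1.58 FPKM in lux-6, against 4.09 ± 2.23 and 5.01 ± 1.94 FPKM in Col-0 (SD, n = 2; adjusted p = 0.307 and 0.362). The list's median was 0.77, and 0.52 without Col-0 replicate 2.

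Genes known downstream of the WRKY factors were grouped in lists, each with its counts, its median and a few of its genes. Of 6 camalexin genes none passed in limma or limma-voom, and their median was 1.11. At an unadjusted p under 0.05, 3 were higher, against 9.18% of all tested genes. PAD3, the last enzyme of camalexin synthesis and a WRKY33 target, was at 8.02 and 6.73 FPKM in lux-6 and at 2.08 and 1.45 FPKM in Col-0 (adjusted p = 0.103). CYP79B3, an earlier enzyme that also feeds indole glucosinolates, averaged 113 ± 10.9 FPKM in lux-6 and 50.0 ± 28.3 FPKM in Col-0 (SD, n = 2; adjusted p = 0.347). CYP71A13 lay on the other side, at 5.42 and 5.54 FPKM in lux-6 and 7.01 and 11.8 FPKM in Col-0 (adjusted p = 0.455; chosen after its values were seen). The list's median was 0.59 once Col-0 replicate 2 was left out.

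Salicylic acid genes had a median of 0.56 over 8 tested. Of these, 0 rose in limma and 1 in limma-voom, against 0.286% and 0.462% of all tested genes. At an unadjusted p under 0.05, 4 were higher, against 9.18%. CBP60G, a regulator of salicylic acid synthesis, was at 8.35 and 8.27 FPKM in lux-6 and at 1.34 and 1.54 FPKM in Col-0 (adjusted p = 0.0562; limma-voom adjusted p = 0.0425). SAG101, a partner of EDS1, averaged 10.8 ± 0.870 FPKM in lux-6 and 5.34 ± 1.28 FPKM in Col-0 (SD, n = 2; adjusted p = 0.231). The synthesis gene ICS1 had a log2 fold change of -0.02, and the marker PR1, an indirect WRKY70 target, was at 0.720 and 0.368 FPKM in lux-6 and listed at 0 in both Col-0 libraries; both were chosen after their values were seen. Early pattern-triggered genes had a median of 1.02 over 8 tested, with 0 past limma or limma-voom. Of the 8, 5 were higher at an unadjusted p under 0.05, against 9.18% of all tested genes. RBOHD, the oxidase of the immune oxidative burst, was at 63.5 and 64.1 FPKM in lux-6 and at 18.9 and 11.1 FPKM in Col-0 (adjusted p = 0.0769). CYP81F2, an enzyme of indole glucosinolate modification, averaged 7.05 ± 0.951 FPKM in lux-6 and 0.988 ± 0.801 FPKM in Col-0 (SD, n = 2; adjusted p = 0.122). FRK1 of the same list was too low to test, with 1 and 6 fragments in lux-6 and 2 and 7 in Col-0. The libraries of NHL10 overlapped, and FRK1 and NHL10 were chosen after their values were seen. WRKY29 is in this list and also among the other WRKY genes. Without Col-0 replicate 2 the medians of these lists were 0.38 and 0.72.

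Leaf senescence genes other than WRKY factors had a median of 1.09 over 10 tested. Of these, 0 rose in limma and 1 in limma-voom, against 0.286% and 0.462% of all tested genes. At an unadjusted p under 0.05, 6 were higher, against 9.18%. JUB1, a NAC factor that delays senescence, was at 10.44 and 10.14 FPKM in lux-6 and at 2.57 and 2.02 FPKM in Col-0 (adjusted p = 0.0629). SEN1, a dark-inducible gene, averaged 105 ± 7.94 FPKM in lux-6 and 5.22 ± 4.13 FPKM in Col-0 (SD, n = 2; adjusted p = 0.0626; limma-voom adjusted p = 0.0425). Of the 10 tested, 6 were higher in each lux-6 library than in either Col-0 library, against 26.1% of all tested genes. None was lower in both, against 22.8%, and the other 4 overlapped between genotypes. SAG12, with 0 fragments in every library, and SAG13 were too low to test, and both were chosen after their values were seen. Of published targets of WRKY40 or WRKY6, 1 of 5 tested rose in limma, against 0.286% of all tested genes. RRTF1, an ERF factor gene bound by WRKY40, was at 18.3 and 13.1 FPKM in lux-6 and at 0 and 0.0645 FPKM in Col-0 (adjusted p = 0.0330; limma-voom adjusted p = 0.0858). Its Col-0 values are 0 and 1 fragments, so its fitted fold change depends on the pseudocount. The jasmonate repressor gene JAZ8 was at 3.88 and 2.97 FPKM in lux-6 and at 0.322 and 0 FPKM in Col-0 (adjusted p = 0.108). PHO1, the gene that WRKY6 represses, was at 33.1 and 36.0 FPKM in lux-6 and at 40.4 and 25.6 FPKM in Col-0, and its groups overlapped; JAZ8 and PHO1 were chosen after their values were seen. Without Col-0 replicate 2 the medians of the senescence and target lists were 0.76 and 0.998, against 1.09 and 1.41 over all libraries, and with Col-0 replicate 1 left out that of the senescence list was 1.82.

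Transcripts of rapid touch and wound responses were higher in lux-6 together with the WRKY genes. The list was chosen with earlier results of these data known. All 13 of its genes were higher in each lux-6 library than in either Col-0 library, against 26.1% of all tested genes. Their FPKM summed to 1206 and 1435 in lux-6 against 264 and 133 in Col-0. In limma 3 of 13 rose and none fell, against 0.286% and 0.0051% of all tested genes. In limma-voom 4 rose and none fell, against 0.462% and 0.0154%. The list's median was 2.75, beside 0.05 over all tested genes. Once Col-0 replicate 2 was left out, these medians were 2.26 and -0.039. The calmodulin-like gene TCH3 was at 146 and 197 FPKM in lux-6 and at 13.8 and 15.4 FPKM in Col-0 (adjusted p = 0.0330). CML38, another calmodulin-like gene, and ZAT12, a zinc-finger factor of stress responses, rose by 4.23 and 2.37 on the log2 scale (adjusted p = 0.0330 and 0.0498). In limma-voom CML38 passed and ZAT12 did not (adjusted p = 0.0374 and 0.0581). Of all genes, 0 passed in limma with lux-6 replicate 1 or 2 left out, where 874 and 889 were at an unadjusted p under 0.05. The part of handling, wounding or touch in the WRKY differences was not tested, and the labels do not describe how seedlings were harvested beyond the time.

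Leaf, root and seed markers each had a summed signal in all libraries, though the seed genes SESA4 and CRU2 were at 0 FPKM in Col-0 replicate 2. Leaf markers summed to between 14820 and 15322 FPKM in lux-6 and to 19343 and 32250 FPKM in Col-0. In both lux-6 libraries 4 of the 5 were lower, against 22.8% of all tested genes. Root markers summed to 45.7 and 56.9 FPKM in lux-6 and to 60.6 and 51.8 FPKM in Col-0. All 7 overlapped between genotypes, where 26.1% of all tested genes were separated as higher and 22.8% as lower in lux-6. Seed markers, storage protein and oil body genes, summed to 2003 and 2111 FPKM in lux-6 against 212 and 17.0 FPKM in Col-0. Of these, 9 of 9 were higher in both lux-6 libraries, against 26.1% of all tested genes. In limma 4 rose (SESA3, SESA4, SESA5 and CRU2), against 0.286%. In limma-voom only SESA3 did (adjusted p = 0.0411), against 0.462%. The Col-0 fragments were 4 and 1 for SESA3, 4 and 0 for SESA4, 13 and 8 for SESA5 and 9 and 0 for CRU2. The fitted fold changes of such low genes depend on the pseudocount. The part of the organ markers in the WRKY differences was not tested.

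**Figure D5:**
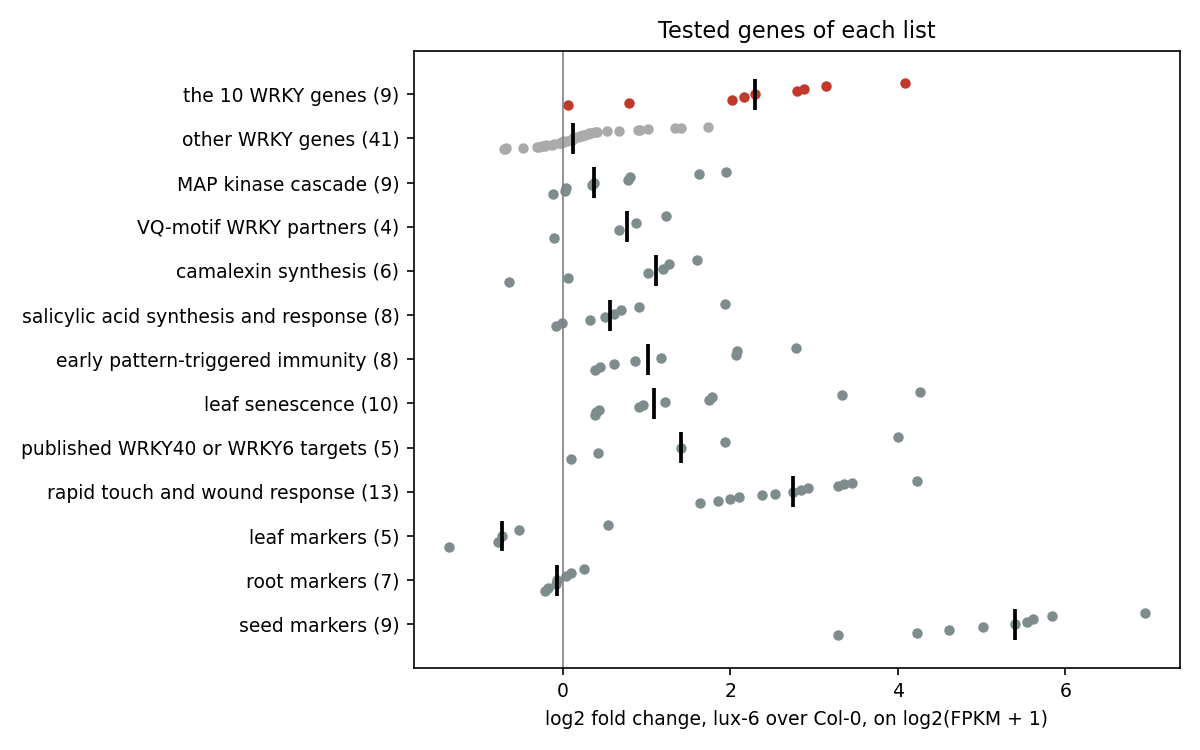
Log2 fold change, lux-6 over Col-0 on log2(FPKM + 1), of the tested genes of each list (points, number in brackets) with the list's median (black bar). The 9 tested WRKY genes have a median of 2.29, near the 2.75 of the rapid touch and wound list, while the other WRKY genes have 0.12 and the root markers -0.07.

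Overlapping annotation limits some of these values, because strandedness is not given in the labels, and reads of a gene and its antisense partner can then not be told apart. In TAIR10.1 the 3 protein-coding genes that overlap one of the 10 lie on the opposite strand. AT4G23800, an HMG-box gene, overlaps WRKY53 over 341 bases and was at 43.1 and 52.4 FPKM in lux-6 and at 66.6 and 87.9 FPKM in Col-0, the opposite direction to WRKY53. AT1G80850 overlaps WRKY40 over 51 bases and was at 10.7 and 10.4 FPKM in lux-6 and at 10.3 and 13.9 FPKM in Col-0. AT2G38480 overlaps WRKY33 over 26 bases and was at 6.46 and 6.71 FPKM in lux-6 and at 3.98 and 4.62 FPKM in Col-0, and a non-coding gene on that strand, AT2G08965, overlaps it over 272 bases.

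The genes most like the 10 in pattern were found by the distance between centred log2(FPKM + 1) values over the 4 libraries, measured from the average of the 9 tested WRKY genes. The nearest was RVE1 (AT5G17300), a clock-related MYB factor gene, at a distance of 0.0152, with 24.0 and 22.0 FPKM in lux-6 and 4.84 and 3.45 FPKM in Col-0. It was followed by the calmodulin-like gene CML37 (AT5G42380) at 0.0713, the TIR-NBS-LRR resistance family gene AT4G19520 at 0.121, AT5G43620, annotated as a pre-mRNA cleavage complex II protein, at 0.163, and JAZ9 (AT1G70700, TIFY7 in the annotation), a jasmonate repressor gene, at 0.193. AT4G19520 rose (adjusted p = 0.0425), at 30.8 and 30.8 FPKM in lux-6 and 6.16 and 4.67 FPKM in Col-0. With 4 libraries of 2 genotypes many genes can share such a profile.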

How the data were processed

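Whole-seedling RNA of Arabidopsis thaliana was measured in 4 libraries, grouped by title. Per the labels' protocols, Trizol extraction and DNase I treatment preceded NEBNext Ultra RNA library preparation. TopHat2 2.0.12 and the TAIR10 build are listed, per the submitters' processing notes. The authors deposited FPKM, per the file headers; their counter, gene lengths and scaling total were not given in the sources used here. They are not counts, so log2(FPKM + 1) was modelled by genotype alone in limma 3.58.1 (R 4.3.3, trended prior variance), for genes averaging 1 FPKM or more. p-values are two-sided and Benjamini-Hochberg adjusted over all 19592 genes, with a threshold of 0.05. The 9 tested WRKY genes had means above 1 FPKM in both genotypes. Residual and prior degrees of freedom were 2 and 2.88. p-values measure the spread between these libraries.

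Fragments were worked back as whole numbers, within 0.002, by searching library totals and gene lengths between 0.5 and 1.2 times the annotated one. The search succeeded for 82.8% of genes above 0 and for all 10 WRKY genes. It and the model were tested on simulated data. Names, products, gene starts and sequences are from RefSeq TAIR10.1, which names 97.7% of the identifiers. Its nuclear coordinates are given for that build alone, and the deposited files hold none. Other WRKY genes are those whose symbol is WRKY and a number. Named genes were the 10, the 4 other WRKY genes with the smallest p (none passed), up to 4 members of each list past the test (otherwise the 2 with the smallest p), LUX, and the 5 nearest profiles among genes averaging 5 FPKM or more. Genes named outside this rule are marked, and organ markers are given as sums and counts with the names of those past the test. The WRKY genes and the lists were chosen with earlier results of these data known. The analysis of counts that had been planned in case the files held them was not used.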

Additional observations from a re-analysis of the deposited data

How the results depend on the processing

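WRKY33 kept its call under a filter at a mean of 5 FPKM, median-of-ratios scaling, removal of organelle genes, limma-voom and the replicate block. It lost it without a filter (adjusted p = 0.0865) and with a pseudocount of 0.1 (adjusted p = 0.0526), where limma called 0 of the WRKY genes and 0 genes in all (2680 and 2316 had an unadjusted p under 0.05, and 7 of the WRKY genes each time); the cause was not tested. Over all genes 57 passed, against 100 with the filter at 5 FPKM, 93 in limma-voom, 96 with median-of-ratios scaling, 98 without organelle genes and 0 to 6618 with 1 library left out. Of the 9 tested WRKY genes, 2 passed in limma-voom and 0 to 8 with 1 library left out, and of the other WRKY genes 0 to 9. The median of the 9 log2 fold changes was 2.79 in limma-voom, 2.74 with a pseudocount of 0.1 and 2.03 to 2.47 with 1 library left out, and stayed at 2.24 to 2.32 elsewhere. WRKY60 turned to -0.0018 with median-of-ratios scaling and lay between -0.24 and 0.35 with 1 library left out. Replicate numbers are shared between genotypes, but the labels do not say that a number marks a batch. Deviations of same-numbered libraries correlated at r = -0.0255 across genes. Because Col-0 replicate 2 was the least like the rest, this value cannot decide whether same-numbered libraries shared a batch. With the replicate block 340 genes, 6 of the WRKY genes and 2 other WRKY genes passed. Separation of libraries does not depend on pseudocount, filter or block. Depth limits WRKY54 and the Col-0 values of WRKY46.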
